A study of Mus musculus with 2 samples.

Results

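The INK4 proteins, p27, the D cyclins and the kinases they act on were compared between 2 RNAs from MEFs (mouse embryonic fibroblasts, which are primary cultures of connective tissue cells). The set was fixed by name as 10 genes: the INK4 inhibitor genes Cdkn2a, Cdkn2b, Cdkn2c and Cdkn2d, the p27 gene Cdkn1b, the D cyclin genes Ccnd1, Ccnd2 and Ccnd3, and the kinase genes Cdk4 and Cdk6. All 10 were on the array, with 17 of its 41174 probes, out of 27745 gene names. The fibroblasts came from C57BL/6J mice without treatment, and were LATS2-/- (KO) or LATS2+/+ (WT). Some label fields spell the genotype LAT2. Both RNAs were hybridised together to Agilent whole mouse genome arrays, with KO in Cy5 and WT in Cy3 on array 1 and with the dyes exchanged on array 2. The labels do not give the number of embryos, separate cultures, or whether 1 RNA preparation of each genotype served for both hybridisations. The arrays were treated as a dye swap of 1 pair of RNAs, that is, as 1 replicate. On that reading no test of genotype exists, and the difference between arrays reflects error of hybridisation and dye only.

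Lats2, the gene deleted in the KO cells, did not bear out the labels. In the KO-labelled RNA 3 of its 4 probes read higher (log2 ratios of 0.56, 0.57 and 0.63) and 1 was lower (-0.35). The 3 higher probes lie close together on chromosome 14 (56644080 to 56645305), and the first overlaps the next, so they are not 3 separate views. The lower probe starts at 56676512. Which part of the gene was deleted is not given in the sources used here, so a probe outside it would check nothing. Each direction below therefore rests on the genotype labels, and the samples are written as the KO-labelled and WT-labelled RNA. Of 12 fibroblast markers, 12 passed the scanner software's flag for a signal well above background in the WT-labelled and 11 in the KO-labelled RNA on both arrays, while 0 of 5 endothelial and 0 of 3 pluripotent markers did. The flag was also passed by 3 of 5 haematopoietic, 2 of 5 epithelial, 2 of 4 neural and 1 of 4 muscle markers, so it does not separate cell types cleanly. Xist passed the flag in both RNAs (-0.08) and 0 of 4 Y-linked genes did. No spot was saturated, and outlier flags removed 0.899% and 0.871% of the spots.

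D cyclins are made when growth factors call cells into division. They bind and activate CDK4 and CDK6, which phosphorylate the retinoblastoma protein and so release E2F transcription factors, the activators of S phase genes. INK4 proteins bind CDK4 and CDK6 and keep D cyclins off them. p27 inhibits cyclin E and cyclin A complexes of CDK2 and also binds cyclin D complexes. In cultured MEFs the products of the Cdkn2a locus, p16Ink4a and p19Arf, are known to accumulate with passage and to accompany senescence.

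In these RNAs, Cdkn2c and Cdkn2d were the members most reduced in the KO-labelled RNA, at 49.3% and 48.4% of the WT-labelled RNA, and Ccnd2 was the most raised. The mean ratios of Cdkn2b, Ccnd1, Ccnd3 and Cdk4 were within 0.20 of 0 on the log2 scale. The INK4 genes did not move as 1 group. To show the regulatory sequence beside the values, the bases upstream of the start of Cdkn2b, Cdkn2c and Cdkn2d are printed from RefSeq (build GRCm38.p6), since these are INK4 genes with different ratios. Each run gives the 250 bases before the annotated start on the minus strand, 5′ to 3′, and capitals mark the GC box, GGGCGG on either strand. For Cdkn2c the distal of 2 annotated starts is shown.

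Cdkn2b, chr4:89311033-89311282: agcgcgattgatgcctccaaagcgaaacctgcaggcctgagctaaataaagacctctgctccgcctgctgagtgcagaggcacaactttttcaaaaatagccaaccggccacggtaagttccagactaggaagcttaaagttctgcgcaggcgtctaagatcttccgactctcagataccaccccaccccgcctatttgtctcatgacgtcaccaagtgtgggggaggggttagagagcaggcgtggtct
Cdkn2c, chr4:109666757-109667006: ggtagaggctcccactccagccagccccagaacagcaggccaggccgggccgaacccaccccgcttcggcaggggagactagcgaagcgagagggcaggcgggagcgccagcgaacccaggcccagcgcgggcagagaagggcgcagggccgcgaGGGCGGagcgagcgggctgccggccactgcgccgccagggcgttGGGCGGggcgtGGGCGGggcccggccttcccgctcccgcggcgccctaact
Cdkn2d, chr9:21291210-21291459: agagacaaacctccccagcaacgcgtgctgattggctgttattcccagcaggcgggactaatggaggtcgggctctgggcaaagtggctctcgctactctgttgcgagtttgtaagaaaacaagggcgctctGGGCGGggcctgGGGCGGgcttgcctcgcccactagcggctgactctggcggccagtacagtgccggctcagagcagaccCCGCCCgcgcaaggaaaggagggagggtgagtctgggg

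The printed stretches before Cdkn2c and Cdkn2d each held 3 GC boxes and that before Cdkn2b held 0. The other annotated start of Cdkn2c had 0, and the 2 starts of Cdkn2a had 2 (distal) and 0, so the number of boxes depended on the start taken. Outside the INK4 genes, the 2 starts of Ccnd3 had 2 and 1, Cdkn1b and Cdk4 had 1 each, and Cdk6 had 0. Boxes were thus also found before members that were not reduced, such as Ccnd3 (ratio of 0.20). A relation of the boxes to the ratios was not tested. Of 32851 mouse promoter stretches of the same length, 32.7% held at least 1. The G and C content was 77.2% for the printed Cdkn2c stretch and 42.8% at its other start, 63.6% for Cdkn2d, 53.6% for Cdkn2b, and 78.4% and 60.0% for Cdkn2a. The E2F-type motif TTTCCCGC, on either strand, was in none of the 3 and in 0.895% of all stretches; among the 8 members with a promoter in the table it occurred only before the distal start of Cdkn2a. The motif TTTGGCGC (0.417% of all stretches) was before none of the members. The E-box CACGTG (6.02% of all stretches) was before none of the INK4 genes, but was found 4 times before Cdk4 and 1 time before Cdk6. These matches describe letters in a window and not binding. Ccnd1 and Ccnd2 had no entry in the table.

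Every ratio below is log2 of the KO-labelled RNA over the WT-labelled RNA after background correction and normalisation within each array, with array 2 turned to the same direction. Signals are scanner units, and normalised levels are log2 intensities that may be compared between the RNAs for 1 probe but not between probes. Between arrays a single probe had an SD of 0.136, over the 24186 probes that passed the background flag in at least 1 RNA on both. Of the 17 member probes, 16 had the same sign on both arrays, and their ratios correlated with a Pearson's r of 0.957 and a Spearman's rho of 0.953 across probes, which share their RNAs and are not replicates. Over all 40875 probes measured on both arrays the values were 0.899 and 0.626. That set includes the probes that did not pass the background flag, so it is unlike the member probes.

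**Figure D1:**
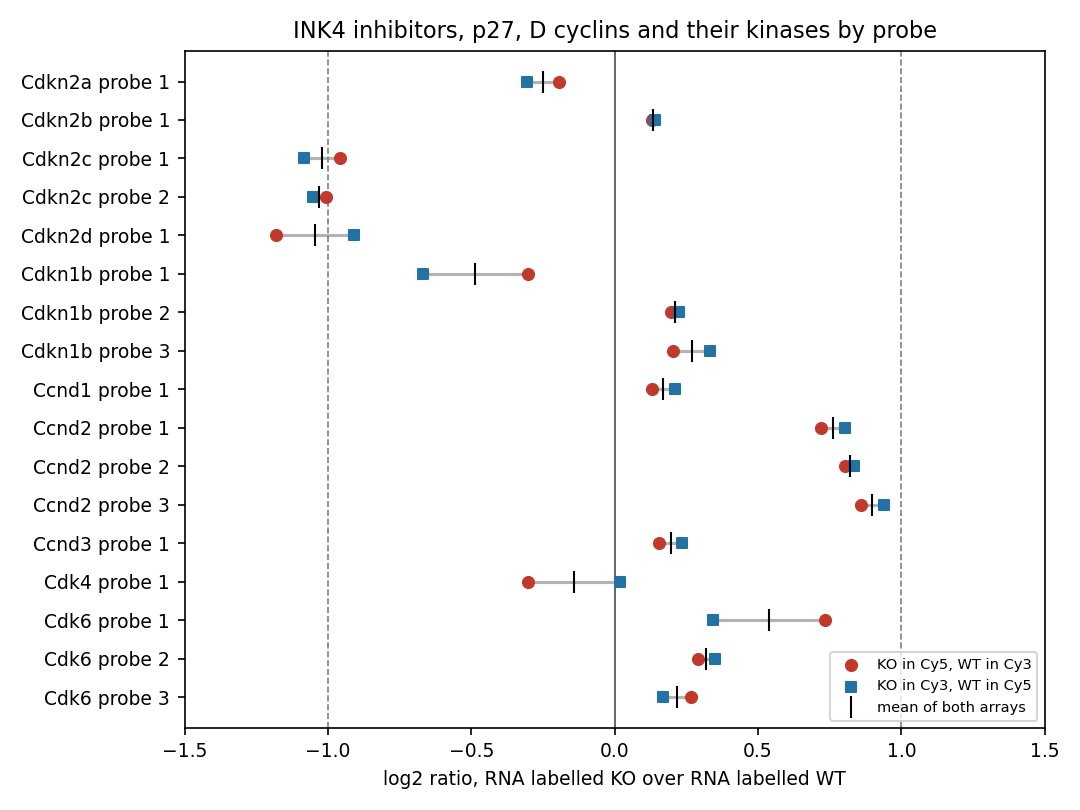
Log2 ratio of the KO-labelled RNA over the WT-labelled RNA for the 17 probes of the 10 genes. Circles are array 1 (KO in Cy5), squares array 2 (KO in Cy3), ticks their mean, and dashed lines mark 2-fold. The Cdkn2c and Cdkn2d probes lie near -1, the 3 Ccnd2 probes lie between 0.72 and 0.94, and the Cdkn1b probes lie on both sides of 0.

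Cdkn2c encodes p18Ink4c, an INK4 inhibitor. Its brighter probe (chromosome 4, 109159106 to 109159165 on the mm8 build used by the files, minus strand) read 2066 units for KO in Cy5 beside 1592 for WT in Cy3 on array 1, and 769.5 for KO in Cy3 beside 4134 for WT in Cy5 on array 2. Cy5 runs brighter than Cy3 on both arrays, so the raw readings mix dye and RNA. After normalisation the log2 levels were 10.38 and 10.27 in the KO-labelled RNA and 11.33 and 11.36 in the WT-labelled RNA. The levels of the RNAs did not overlap, and the gap exceeded the difference between arrays many times over. Lack of overlap alone does not mark a large change, since it also held for members with small ratios. The levels of Cdkn2b, for example, were 12.37 and 12.39 in the KO-labelled RNA and 12.24 and 12.25 in the WT-labelled RNA. The share of all probes without overlap was not counted. The ratios were -0.96 and -1.08, with a mean of -1.02 (SD 0.090 between arrays), or 49.3% of the WT-labelled RNA. A second probe, at 109159084 to 109159145, gave -1.01 and -1.05 (48.9%). It shares 40 bases with the first, so it is not a separate view of the transcript. In bulk RNA such as this, fewer cells that express a gene and less RNA per cell cannot be told apart.

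Cdkn2d encodes p19Ink4d, another INK4 inhibitor. Its probe (chromosome 9, 21038938 to 21038997, minus strand) read 6760 units for KO and 5516 for WT on array 1, and 2704 for KO and 13063 for WT on array 2. The normalised levels were 12.01 and 12.08 in the KO-labelled RNA and 13.19 and 12.99 in the WT-labelled RNA, again without overlap. The ratios were -1.18 and -0.91, with a mean of -1.05 (SD 0.191), or 48.4%. The difference between the mean ratios of Cdkn2c and Cdkn2d was 0.03, with an SD of 0.281 between arrays, and the arrays put them in opposite order.

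The other pair of INK4 genes, Cdkn2a and Cdkn2b, are neighbours on chromosome 4, where their probes were 31892 bases apart. Cdkn2a gives rise to p16Ink4a and, from another first exon and reading frame, to p19Arf, which protects p53. Its probe (88745872 to 88745931, minus strand) is assigned in the files to both transcripts, so that the value does not separate them. It read 349.4 units for KO and 193.8 for WT on array 1 and 161.8 and 462.1 on array 2, as means of 10 spots. The single spots had ratios from -0.29 to -0.14 on array 1 and from -0.42 to -0.25 on array 2, so all 20 were below 0. The mean was -0.25 (SD 0.079), or 84.0% of the WT-labelled RNA. Cdkn2b encodes p15Ink4b, the INK4 inhibitor known for its induction by TGF-beta. Its probe (88777764 to 88777823, minus strand) read 8631 units for KO and 2876 for WT on array 1, and 3386 and 7828 on array 2. The ratios of 0.13 and 0.14 differed little between arrays. Their mean of 0.135 (110%) was near the SD of a single probe on 1 array (0.136). It was above the SD of a mean of both arrays (0.096), which holds error of hybridisation and dye only. Within each array the ratio of Cdkn2b was above that of Cdkn2c, by 1.09 and 1.23 on the log2 scale, with a mean of 1.16 (SD 0.098). Cdkn2a lay above Cdkn2c by 0.77 (SD 0.010).

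**Figure D2:**
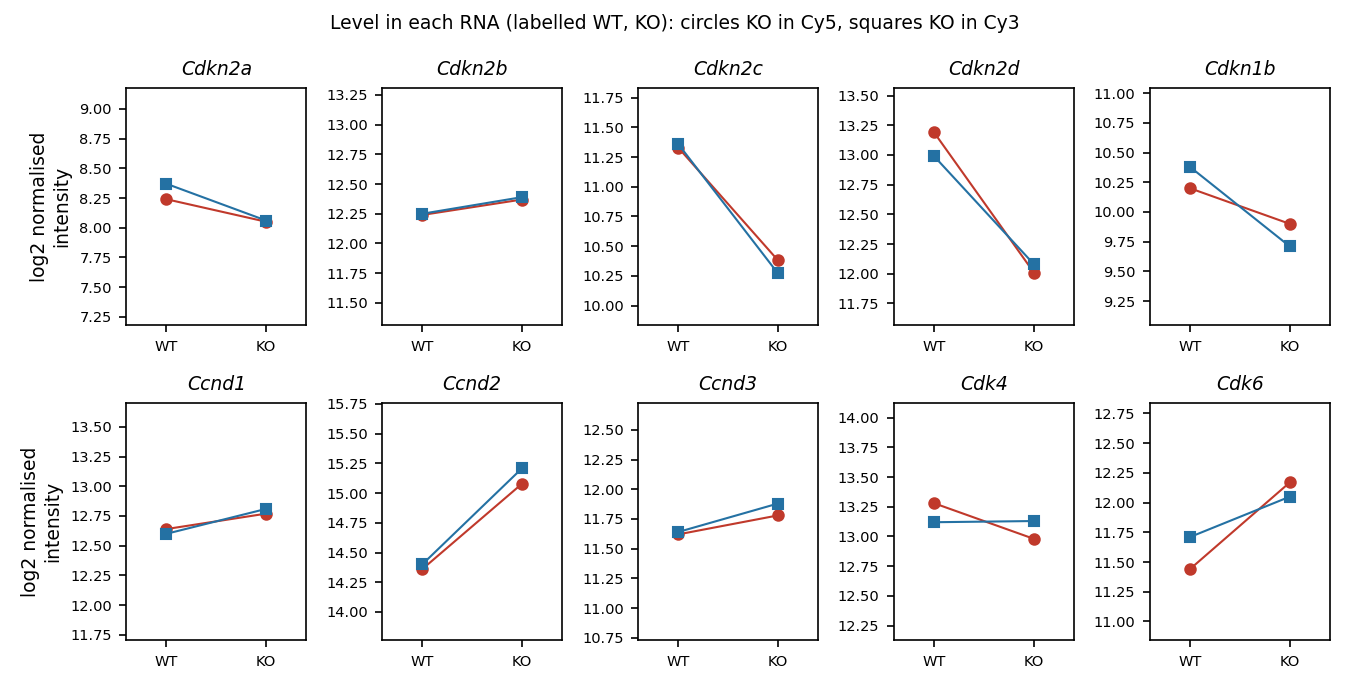
Normalised log2 intensity of the brightest probe of each gene in the WT-labelled RNA and the KO-labelled RNA, with circles for array 1 (KO in Cy5) and squares for array 2 (KO in Cy3). Every panel spans 2 log2 units, and heights may be compared within a panel only. The lines of Cdkn2c and Cdkn2d fall steeply, those of Ccnd2 rise, and those of Cdk4 disagree.

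Cdkn1b, the p27 gene on chromosome 6, was read by 3 probes that disagreed in direction. The brightest, assigned to a cDNA clone (134890890 to 134890949), had normalised levels of 9.90 and 9.71 in the KO-labelled RNA and 10.20 and 10.38 in the WT-labelled RNA. Its ratios were -0.30 and -0.67, with a mean of -0.49 (SD 0.259), or 71.4%. Both probes assigned to the RefSeq transcript were higher in the KO-labelled RNA. The one at 134886778 to 134886836, spotted 10 times, gave 0.20 and 0.23, and the one at 134889281 to 134889340 gave 0.20 and 0.33. The clone's probe starts 4112 bases beyond the first of these and the middle probe 2503 bases beyond it. The mean over the 3 probes was 0.00, so that no direction is given for p27 RNA as a whole.

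Among the D cyclins, Ccnd2 stood apart. Cyclin D2 is the D cyclin known for its control by FSH in ovarian granulosa cells and for its roles in lymphocytes and pancreatic beta cells. Its 3 probes on chromosome 6 (minus strand) span 19062 bases. The brightest, at 127095295 to 127095354, read 60777 units for KO and 11536 for WT on array 1 and 23426 and 36275 on array 2. The normalised levels were 15.08 and 15.21 in the KO-labelled RNA and 14.36 and 14.40 in the WT-labelled RNA. The ratios were 0.72 and 0.81, with a mean of 0.76 (SD 0.060), or 170%. The other probes, at 127114297 to 127114356 and 127104788 to 127104847, gave means of 0.82 and 0.90, and thus all 6 readings lay between 0.72 and 0.94.

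Ccnd1, a known target of growth factor signalling, had its probe at chromosome 7, 144739658 to 144739717. It read 11609 units for KO and 3775 for WT on array 1 and 4542 and 10107 on array 2, over 10 spots. The ratios of 0.13 and 0.21 had a mean of 0.17 (SD 0.056), or 112%, and single spots ranged from 0.11 to 0.15 and from 0.17 to 0.23. Ccnd3 (chromosome 17, 47062509 to 47062568) read 5621 and 1905 units on array 1 and 2381 and 5105 on array 2, for KO and WT respectively. Its ratios were 0.15 and 0.24, with a mean of 0.20 (SD 0.058), or 114%. Ccnd1 and Ccnd3 were slightly higher in the KO-labelled RNA on each array and differed from each other by 0.03, with Ccnd3 above on both. Ccnd2 exceeded Ccnd1 by 0.59 (SD 0.004) and Ccnd3 by 0.57 (SD 0.001). Each SD rests on 2 arrays only and lies far below the 0.136 of a single probe, so it overstates the precision. Both differences were also larger than 0.136.

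The kinases were less settled. Cdk4 (chromosome 10, 126467860 to 126467919), a kinase partner of the D cyclins, read 13436 units for KO and 5757 for WT on array 1, and 5644 and 14463 on array 2. Its ratios were -0.30 and 0.02, so that the arrays differed in sign and the mean of -0.14 (90.6%) had an SD of 0.225. The levels overlapped, at 12.98 and 13.13 in the KO-labelled and 13.28 and 13.12 in the WT-labelled RNA. It was the only member probe whose sign depended on the array. Cdk6 was read by 3 probes on chromosome 5, all above 0 on each array. The brightest, assigned to a cDNA clone (3535293 to 3535352), read 7418 and 1668 units on array 1 and 2671 and 5321 on array 2. Its normalised levels did not overlap, at 12.17 and 12.05 in the KO-labelled and 11.44 and 11.71 in the WT-labelled RNA. It gave ratios of 0.73 and 0.34, with a mean of 0.54 (SD 0.277), or 145%. Both probes assigned to the RefSeq transcript gave smaller means, of 0.32 (3479226 to 3521510, a span longer than the probe) and 0.22. The latter, at 3527675 to 3527734, was the only member probe that was not well above background in both RNAs on both arrays. The difference between the ratios of Cdk4 and Cdk6 was -0.68 with an SD of 0.501, and was -1.03 on array 1 and -0.33 on array 2.

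The study's methods took a 2-fold threshold, here required on each array and in the brightest probe of a gene. By this measure 0 of the 10 members were called higher and 0 lower. Among 15877 genes well above background the shares were 2.95% higher and 2.59% lower. Cdkn2c missed the threshold on array 1 (-0.96) and Cdkn2d on array 2 (-0.91), although both means were past 2-fold, and the second Cdkn2c probe reached it on both arrays. With Feature Extraction's own ratio, Cdkn2c passed and 1 member was called lower. At 1.5-fold, Ccnd2 was called higher and Cdkn2c and Cdkn2d lower, beside 7.05% and 7.15% of all genes. By probe, 3 of 17 passed 1.5-fold upwards (all of Ccnd2) and 3 downwards (both of Cdkn2c and that of Cdkn2d), beside 6.13% and 6.24% of all probes. In the distribution of all genes, 2.94% had a lower ratio than Cdkn2c, 2.75% a lower ratio than Cdkn2d and 5.44% a higher ratio than Ccnd2. The median of the 10 members was 0.00 (-0.003), the same as that of all genes (-0.003), with 5 members on each side of 0.

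**Figure D3:**
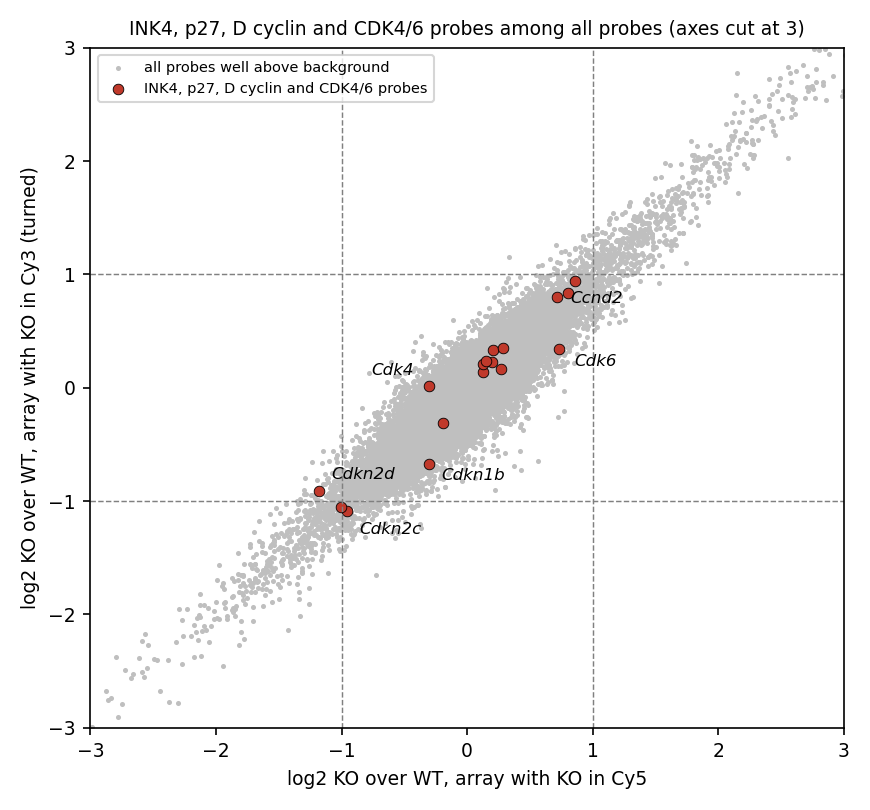
Log2 ratio on array 1 against array 2 for all probes that passed the background flag in at least 1 RNA (grey) and for the 17 probes of the 10 genes (red). Dashed lines mark 2-fold and axes end at 3, beyond which some grey probes lie. Cdkn2c and Cdkn2d sit at the lower left corner of the 2-fold square, Ccnd2 near its upper right, and Cdk4 and Cdk6 off the diagonal.

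The pathway around the members was described by lists, each gene by its brightest probe. Among 3 other CDK inhibitors, 1 was called lower and 0 higher. Cdkn3, a phosphatase that acts on CDKs, had a mean of -1.11, although another of its 3 probes gave -0.18. Cdkn1a, the p21 gene and a target of p53, had ratios of 0.87 and 1.13 and so missed the threshold on array 1, and Cdkn1c (p57) was at -0.07.

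Of the 13 pocket protein, E2F and DP genes, 1 was called lower and 0 higher, 9 were below 0 and the median was -0.17. E2f2, an activating E2F, was the one called, at -1.45 (36.5% of the WT-labelled RNA). The atypical repressors E2f8 and E2f7 had -0.98 and -0.70, but their other probes gave -0.20 and -0.12. The pocket proteins Rbl1 (p107) and Rbl2 (p130) had -0.69 and -0.67, with -0.40 in another Rbl2 probe. Rb1 itself was at 0.23. The activators E2f1 and E2f3 were at 0.19 and 0.43 (with E2f3 probes down to 0.00), although E2f1 differed in sign between the arrays (0.43 and -0.06). E2f4, E2f5, Tfdp1 and Tfdp2 were at -0.05, -0.17, -0.12 and -0.37, with other probes of E2f5 and Tfdp2 up to 0.05 and 0.11. E2f6 had 1 probe at 0.92 and another at -0.72, and no direction is given for it.

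Of 24 genes of S phase and mitosis that E2F factors are known to control, 22 were below 0, beside 50.5% of all genes, with a median of -0.39. Of these, 2 were called lower and 1 higher. Mki67, the proliferation marker, had -1.78, and Plk1, a mitotic kinase, had -1.08. Rrm2, a subunit of ribonucleotide reductase, was higher at 1.19. Among the others, Ccnb1 (cyclin B1) had -0.92 and Ccna2 (cyclin A2) had -0.85, while Ccne1 (cyclin E1) was at 0.10. Such genes are known to rise and fall together through the cell cycle, so they are not independent readings.

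Of 19 regulators of the INK4 locus, 1 was called higher and 0 lower, with a median of -0.19. It was Id1, an inhibitor of bHLH factors, at 1.13 in both of its probes. The lowest by brightest probe was Cbx7, a Polycomb protein known to repress Cdkn2a, at -0.77. Cbx8, also a Polycomb protein, was at -0.32, but its other probe gave -0.92. Of 8 genes of the ARF and p53 axis, 1 was called higher and 0 lower, with a median of -0.03. Ccng1, a p53 target, had 1.49 (0.90 in its other probe), Bbc3, also a p53 target, was lowest at -0.54, and Trp53 was at -0.08. Of 11 genes for the turnover of p27 and D cyclins or for CDK activation, none was called at 2-fold, and the median was -0.01. Mnat1, a part of the CDK-activating kinase, was highest at 0.63 (its other probes reached down to -0.09), and Fbxo31, an F-box protein, was lowest at -0.88.

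Larger ratios were found in the remaining lists, which are known to follow the growth state of a culture. Of 8 immediate early genes, 6 were called lower and 1 higher, and the median was -1.62. Egr1 (-3.95), Fos (-3.73), Fosb (-3.16), Ier2 (-1.72), Junb (-1.51) and Egr2 (-1.43) were lower and Ier3 (1.14) was higher. Of 6 senescence-associated genes, 3 were called higher and 0 lower, with a median of 0.94. Igfbp5 (3.83), Il6 (1.45) and Igfbp3 (1.27) were higher, but other probes of Igfbp5 and Igfbp3 gave as little as 0.26 and 0.07. In the WT-labelled RNA, Il6 read 48.36 and 75.66 units and Igfbp3 53.23 and 83.65 on arrays 1 and 2. The median backgrounds of those channels were 33 and 36, so these 2 ratios depend on the background correction. Below 0 was Hmgb2, a chromatin protein, with -0.96 and -1.23 on the single arrays. Lmnb1, which encodes lamin B1, was also below 0, with a mean of -0.41. Both are known to be lower in senescent cells, so the median of the list mixes directions. That median was 0.49 with all probes of a gene averaged and 1.70 with Feature Extraction's own ratio. Cdkn2a, whose products are known to accompany senescence, was at -0.25. Whether the cultures differed in senescence was not tested. The part of the growth state of the cultures in the ratios of Cdkn2c, Cdkn2d and Ccnd2 was not tested.

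**Figure D4:**
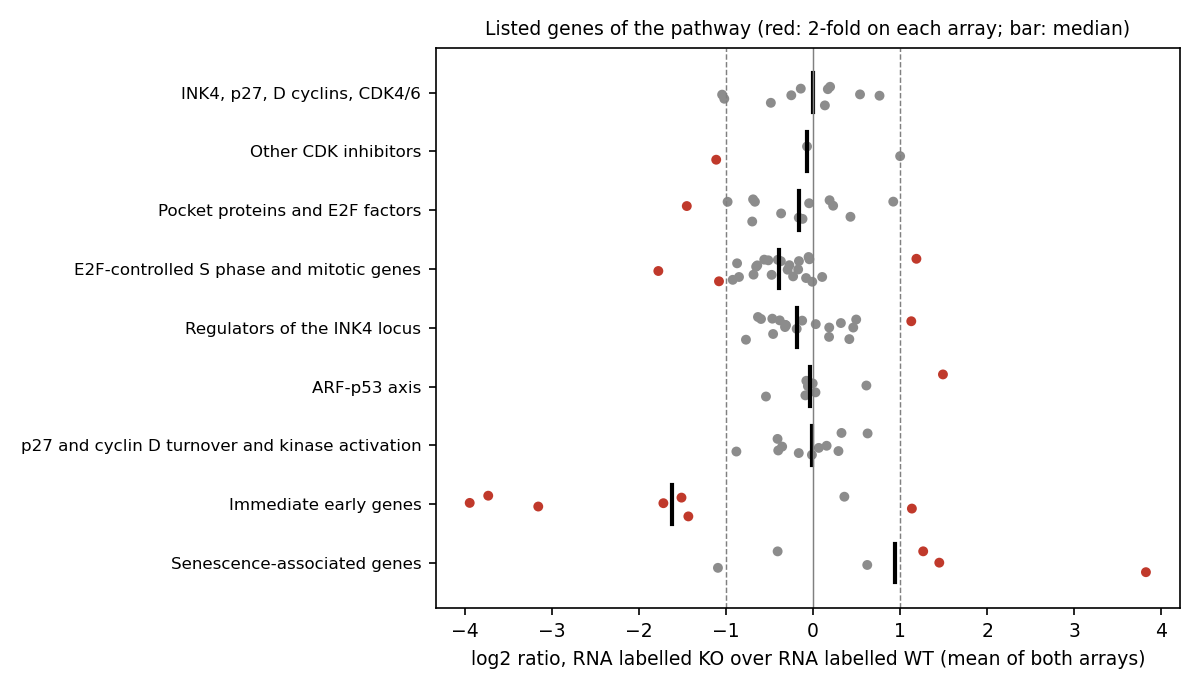
Mean log2 ratio of each gene well above background, by list (brightest probe). Red points passed 2-fold on each array, grey points did not, and bars are medians. The 10 members centre on 0, the E2F-controlled genes lie to its left (median -0.39), and the immediate early genes lie furthest left (median -1.62).

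Markers of other cell types were set beside the members. Of the listed haematopoietic markers, 3 of 5 were well above background: Cd14 was called lower (-1.05), Lyzs was called higher (1.11, with another probe at 0.13), and Csf1r was at -0.05. Neither RNA passed the background flag for Ptprc and Emr1. Among fibroblast markers Fn1 was highest at 0.90, the median was -0.38 and none was called. The marker that failed the flag in the KO-labelled RNA, on 1 array, was the probe named Vim. Of the remaining lists, 2 of 5 epithelial, 1 of 4 muscle and 2 of 4 neural markers were well above background, with ratios between -0.11 and 0.27. The part of other cells in the ratios of the members was not tested.

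Because Cdkn2a and Cdkn2b lie beside each other, the ratios of probes within 2 Mb were examined as well. There were 40 probes of 30 gene names, of which 21 probes were well above background. The 19 that belong to other genes had a median of -0.05, and 3 were called higher and 1 lower, beside 2.48% and 2.07% of all probes. The nearest, Mtap, a methionine salvage enzyme at -94.3 kb, was at 0.15 (0.26 and 0.03). The probes called higher lay close together, at -864.3 to -854.9 kb from Cdkn2a: AK033780 at 3.63 and the pair of Ptplad2 probes at 1.67 and 3.33. A probe named BC057079 between them gave -0.05. The probe called lower belonged to Elavl2, a neuronal RNA-binding protein, at 1997.9 kb on the other side. The KO-labelled RNA did not pass the background flag for it, so only a bound is given. By this probe Elavl2 was at least 9.41-fold lower there. The bound is the WT level over the higher, per array, of its own signal and the lowest signal that passed the flag. The other Elavl2 probe gave only -0.41 and -0.26 (mean -0.34) and was not called. It passed the flag in the WT-labelled RNA but not in the KO-labelled RNA. The size of the reduction of Elavl2 therefore depends on the probe. Klhl9 had 1 probe at -0.55 and 1 at -0.09.

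**Figure D5:**
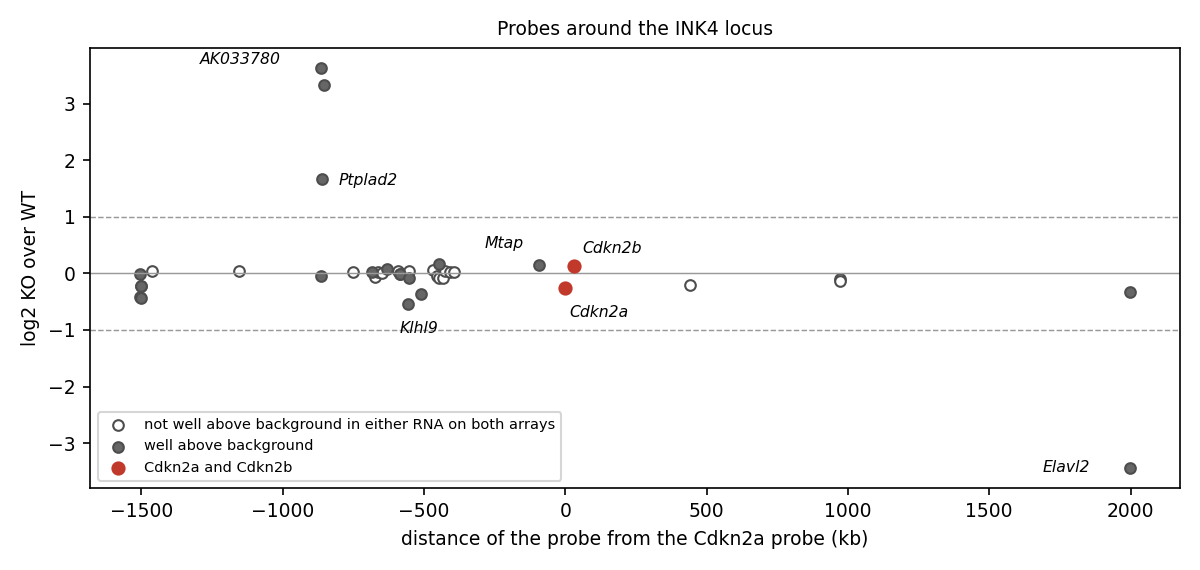
Mean log2 ratio of the 40 probes within 2 Mb of the Cdkn2a probe, by distance in kb in the orientation of the chromosome. Red points are Cdkn2a (-0.25) and Cdkn2b (0.14), filled grey points passed the background flag on both arrays in at least 1 RNA, and open points did not. The probes beyond 2-fold are those of AK033780 and Ptplad2 and the called probe of Elavl2, away from the INK4 genes.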

How the data were processed

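Per the file headers, both arrays were read with Agilent Feature Extraction 10.5.1.1, in 1 scan, and the authors deposited spot intensity (mean signal and median local background, arbitrary units) together with the software's log10 ratio of Cy5 over Cy3. A further deposited table held log2 ratios, which matched KO over WT from the processed signals. Background correction used normexp with an offset of 50 (R 4.3.3, limma 3.58.1), which pulls ratios of dim probes towards 0. Ratios were normalised by loess within each array. Control spots (1639 of 45018) and spots with outlier flags were left out, spots of a probe were averaged, and array 2 was turned. A call needed 2-fold on each array in 1 direction, and the well-above-background flag on both arrays in the higher RNA, in at least a share of 0.5 of the spots. The probe with the highest intensity stood for a gene.

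All members and their probes are named, with Lats2 and the Rb and E2F families. Of each list and of the neighbours within 2 Mb, the called genes or else the highest and lowest are named. Further named genes (Csf1r, Ptprc, Emr1, Cdkn1a, Cdkn1c, Ccnb1, Ccna2, Ccne1, Trp53, Hmgb2, Lmnb1, Cbx7, Cbx8, Bbc3, Xist, Mtap, BC057079, Klhl9) were chosen after their values were seen. The members and lists were chosen with earlier results of these data known. Not every listed gene is named, and 1 gene of the senescence list is left out of its counts. Normalised levels per RNA come from Aquantile after loess. Coordinates are those of the files (mm8); promoters are from RefSeq, and positions of probes in exons were not analysed here. The scripts were tested on simulated data. Further tools were matplotlib 3.10.9, scipy 1.17.1, numpy 2.4.6 and pandas 2.3.3 in Python 3.11.15. The number of arrays limits the precision.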

Additional observations from a re-analysis of the deposited data

How the results depend on the processing

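No paired analysis was possible because there is 1 replicate of each group. Each ratio already sets both RNAs against each other within an array. Members called lower numbered 0 as reported, but 1 (Cdkn2c) with Feature Extraction's own ratio or the authors' deposited log2 table, 1 with either array left out (Cdkn2d from array 1 alone, Cdkn2c from array 2 alone, a range of 1 to 1), and 2 at 1.5-fold. With 2-fold asked of the mean ratio and a p in place of 2-fold on each array, it was 1 by the methods' t-test at an unadjusted p under 0.05 and 2 by limma. Members called higher numbered 1 at 1.5-fold. These tests compare the RNAs hybridised, not the genotypes. Over all probes, 599 were called higher and 500 lower. The counts were 1280 and 1220 both from the scanner software's ratio and from the authors' table, 1482 and 1510 at 1.5-fold, and 0 and 0 with the methods' t-test after Benjamini-Hochberg (524 and 441 unadjusted, 662 and 595 by limma). Median centring in place of loess gave 324 and 170. It turned the correlation between arrays from 0.899 to -0.18, and lowered that of the member probes from 0.957 to 0.591. It leaves in place the dye effect that varies with intensity. The correlation was 0.758 with an offset of 10, 0.672 by the software's ratio and 0.671 by the authors' table; the cause was not tested.

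Of 90 member values recomputed, 82 moved by less than the SD between arrays. The other 8 were those of Cdkn1b (0.00 averaged over its probes), Cdk6 (0.36 averaged over its probes) and, on single arrays, Cdkn1b, Cdk6 and Cdk4, which was at 0.02 on array 2. Of 72 list medians 62 moved as little.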
